A study of Mus musculus with 6 samples.

Results

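The genes described here are 10 genes of glycolysis, measured by the number of capped RNA 5′ ends that start at their promoters in the nuclei of mouse embryonic stem cells (mESCs) and of mouse oligodendrocyte progenitor cells (mOPCs). They are Hk1, Hk2, Gpi1, Pfkl, Pfkp, Aldoa, Pgk1, Pkm, Ldha and Ldhb, a listed set out of 35312 annotated genes (21938 protein-coding genes and 13374 lncRNA genes), of which 16688 had enough tags to be tested. Of each gene, all tags within 500 bp of any annotated 5′ end on the gene's own strand were summed, which for the 10 genes covers 88 distinct 5′ ends. All 10 genes passed the filter on low counts.

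Glycolysis splits glucose into pyruvate in the cytosol, and lactate dehydrogenase interconverts pyruvate and lactate. Several steps are served by isozymes, that is, by products of separate genes that catalyse the same reaction with other kinetics, regulation or tissue distribution. Pluripotent cells in culture are known for a high rate of glycolysis, and cells of the oligodendrocyte lineage are known to produce and export lactate. Hexokinase 1 is the common hexokinase of the adult brain and hexokinase 2 that of insulin-sensitive and many proliferating tissues. The liver, platelet and muscle types of phosphofructokinase, the enzyme that commits sugar to the pathway, are encoded by Pfkl, Pfkp and Pfkm. Ldha encodes the muscle subunit and Ldhb the heart subunit of lactate dehydrogenase.

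CAGE (cap analysis of gene expression) sequences a short tag from the 5′ end of each captured RNA. The tag count of an RNA therefore does not grow with the length of its gene. The libraries were amplified by PCR, so several tags can stem from 1 RNA end. The data comprise 3 libraries of R08, an mESC line grown without feeder cells in serum with LIF, and 3 of Oli-neu, a line derived from mOPCs and grown in N2 medium with T3, thyroxine, bFGF and PDGF-BB. The sources used here describe no change of genotype in either line, and no treatment was compared. Each cell type is represented by 1 line, and the sources used here do not say whether the 3 libraries of a line came from separate cultures, so that the tests measure the spread between these libraries, which may be technical. All mESC files carry 1 library label and all mOPC files another, and a difference between library preparations and one between the lines cannot be told apart. The labels give the medium but no glucose or oxygen level.

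The libraries held between 16657021 and 40928704 tags. The position with most tags took 0.508% to 0.667% of the tags of an mESC library and 5.38% to 5.92% of an mOPC library, and 82.7% to 83.3% against 78.2% to 78.8% of the tags lay in the windows of genes. Levels are given below as tags per 1000000 tags of the library (TPM), without any other normalization. Fold changes come from a model with its own scaling (TMM), under which the median log2 fold change of all genes tested was -0.16, against -0.05 when only library totals were used. Most of the defining markers went with the labels. The sum of the 8 pluripotency markers was 3911 to 4312 TPM in mESCs as against 22.9 to 24.9 TPM in mOPCs, where all but Sox2 were below 1. That of the 8 progenitor markers was 1680 to 1778 TPM in mOPCs as against 13.2 to 13.6 TPM in mESCs, but Pdgfra was close in both (mean 5.51 TPM in mESCs and 8.33 in mOPCs), and Nkx2-2 had 1, 2 and 3 tags in the mESC libraries and none in mOPCs. Of the markers of mature oligodendrocytes, 6 of 7 exceeded 10 TPM in mOPCs, with a summed level of all 7 of 339 to 370 against 22.8 to 25.3 in mESCs. The exception, Mobp, went the other way, with 10.69 to 11.56 TPM in mESCs and 0.0912 to 0.220 in mOPCs. Summed levels of the astrocyte markers were 78.7 to 93.5 in mESCs and 14.5 to 16.0 in mOPCs, of the neuron markers 22.7 to 30.8 and 81.3 to 101.9, of the fibroblast markers 17.9 to 23.4 and 9.67 to 12.3, of the endoderm markers 21.9 to 26.8 and 0 to 0.0489, and of the microglia markers 0 to 0.0543 and 0.730 to 1.2. Members of these lists went in both directions. Among the neuron markers, Syt1 had means of 3.45 TPM in mESCs and 88.3 in mOPCs, whereas Tubb3, Rbfox3, Snap25 and Nefl were lower in mOPCs, the last 3 without a tag there. Among the astrocyte markers, Gja1 (means 77.7 and 0.0152 TPM) and Aldh1l1 (8.48 and 0.0231) were lower in mOPCs. Gfap was higher (0.516 and 0.992), as was Slc1a2, with 13.3 to 15.2 TPM in mOPCs and at most 0.0264 in mESCs. Among the fibroblast markers, Thy1 was lower (means 17.5 and 0.0197 TPM) and Col1a1 higher (2.20 and 11.1). The study's own marker lists give Thy1 (as Cd90) for mESCs and Slc1a2 for mOPCs, so neither stands for another cell type alone. The part of the marker genes in the values of the glycolysis genes was not tested.

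Together, the 10 genes took 0.310%, 0.341% and 0.326% of the tags of an mESC library, as against 0.0699%, 0.0702% and 0.0732% of those of an mOPC library. In mESCs, Pkm had the highest level, followed by Aldoa, Ldha, Pfkp, Pgk1, Hk2, Pfkl, Gpi1, Ldhb and Hk1. The ranges of the libraries overlapped only between Hk2 and Pfkl and between Ldhb and Hk1. In mOPCs, the order was Pkm, Hk1, Aldoa, Pfkl, Gpi1, Pfkp, Ldhb, Pgk1, Ldha and Hk2, with overlapping ranges only between Aldoa and Pfkl and between Ldhb and Pgk1. Hk1, the lowest of the 10 genes in mESCs, was therefore second in mOPCs, while Ldha, the third in mESCs, was ninth in mOPCs. Among the 21938 protein-coding genes, Pkm ranked between 20 and 35 in mESCs and between 415 and 486 in mOPCs, and Ldha between 188 and 267 and between 8025 and 8500.

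**Figure D1:**
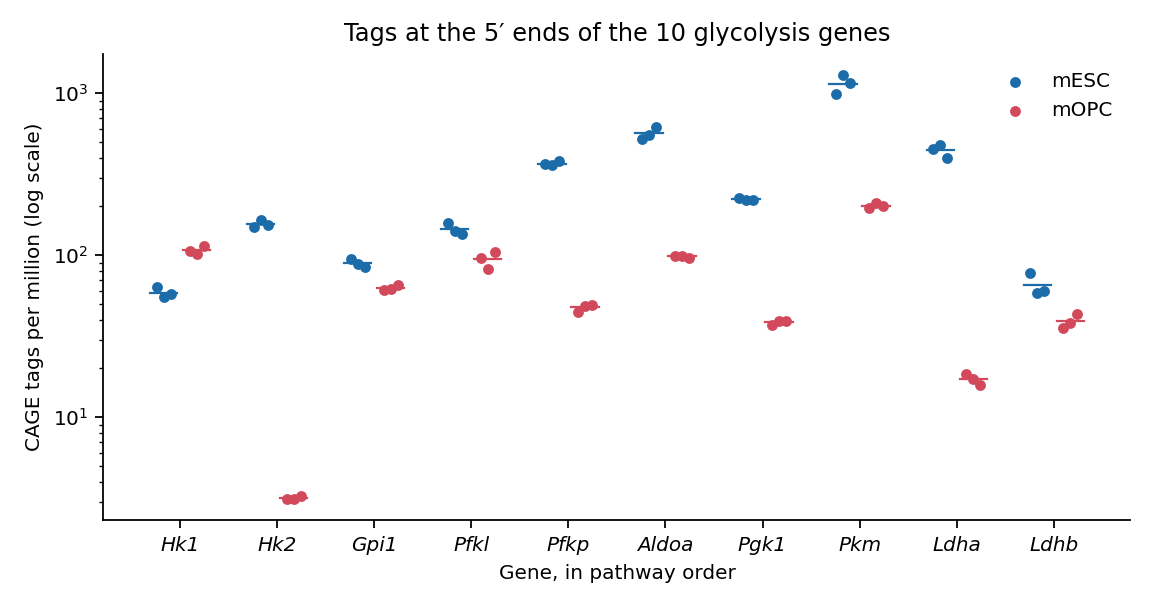
TPM (tags per 1000000 tags of the library, log scale) at the 5′ ends of each of the 10 genes, in pathway order. Points are libraries and short lines their means, 3 mESC libraries in blue and 3 mOPC libraries in red. The points of the cell types do not overlap for any of the 10 genes, and Hk1 is the gene whose mOPC points lie above its mESC points.

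All 10 genes differed between the cell types in edgeR's quasi-likelihood test at a Benjamini-Hochberg adjusted p under 0.05. Of all genes tested, 91.1% did so, and the calls by themselves are therefore close to the background. The direction and size were less even, since 9 of the 10 genes were lower in mOPCs, against 48.7% of all genes, and 6 were at least 4-fold lower, against 25.0% of all genes (at least 2-fold lower, 6 of 10 against 35.9%). The remaining gene, Hk1, was higher, as were 42.4% of all genes. The median log2 fold change was -2.62 over the 10 genes and -0.16 over all genes tested. In bulk nuclear RNA, fewer cells that use a promoter, fewer starts per cell and less of the RNA kept in the nucleus cannot be told apart.

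The first step is the phosphorylation of glucose by hexokinase, and its genes moved in opposite directions. Hk2 (ENSMUSG00000000628.10, chr6:82725025-82774454, minus strand) had 150.0, 163.9 and 153.8 TPM in mESCs, whereas the mOPC libraries had 3.15, 3.12 and 3.25. Its mOPC values rest on 69, 90 and 133 tags. Hk2 fell by 5.72 on the log2 scale (SE 0.11, adjusted p = 4.69e-73, edgeR), a 52.8-fold difference and the largest of the 10 genes. Hk1 (ENSMUSG00000037012.18, chr10:62268855-62379908, minus strand) had 63.3, 55.6 and 57.6 TPM in mESCs and 106.8, 101.5 and 113.4 in mOPCs. The mOPC libraries thus all lay above the mESC libraries, with a log2 fold change of 0.75 (SE 0.086, adjusted p = 7.53e-14, edgeR). The sum over Hk1, Hk2, Hk3 and Hkdc1 was 217.1 ± 5.06 TPM in mESCs and 110.5 ± 5.98 in mOPCs (SD, n = 3).

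Glucose-6-phosphate isomerase, encoded by Gpi1 (ENSMUSG00000036427.5, chr7:34201330-34230336, minus strand), turns glucose 6-phosphate into fructose 6-phosphate and has no isozyme gene. Gpi1 had 95.4, 88.5 and 85.0 TPM in mESCs and 61.3, 61.7 and 65.3 in mOPCs. It fell by 0.63 on the log2 scale (SE 0.085, adjusted p = 6.24e-11, edgeR), the smallest difference among the 10 genes.

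Both phosphofructokinase genes of the set were lower in mOPCs, to different extents. Pfkp (ENSMUSG00000021196.14, chr13:6579768-6648777, minus strand) had 364.5, 358.5 and 380.5 TPM in mESCs against 44.6, 48.9 and 49.2 in mOPCs. Its log2 fold change was -3.06 (SE 0.090, adjusted p = 1.7e-56, edgeR). Pfkl (ENSMUSG00000020277.10, chr10:77986947-78010083, minus strand) had 158.0, 141.3 and 134.7 against 96.1, 82.1 and 105.1 TPM, and the lowest mESC library lay above the highest mOPC library. Pfkl fell by 0.73 on the log2 scale (SE 0.087, adjusted p = 2.32e-12, edgeR). The ratio of Pfkl to Pfkp thereby turned over, from a log2 ratio of -1.35 ± 0.15 in mESCs to 0.98 ± 0.20 in mOPCs (SD, n = 3).

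Aldolase A, phosphoglycerate kinase 1 and pyruvate kinase fell by almost the same factor. Aldoa (ENSMUSG00000030695.16, chr7:126795234-126800751, minus strand), whose product cleaves fructose 1,6-bisphosphate, had 524.4, 551.2 and 618.4 TPM in mESCs and 99.0, 99.2 and 96.7 in mOPCs. Pgk1 (ENSMUSG00000062070.12, chrX:106187100-106203699, plus strand), whose product makes the first ATP of the pathway, had 225.7, 219.3 and 220.6 against 37.2, 39.3 and 39.4 TPM. Pkm (ENSMUSG00000032294.17, chr9:59656368-59679375, plus strand), whose product makes pyruvate and the last ATP of the pathway, had 983.1, 1290 and 1150 against 196.9, 210.9 and 200.3 TPM. In each of the 3 genes, the mOPC libraries varied little and lay far below the mESC libraries. The log2 fold changes were -2.64 for Aldoa (SE 0.091), -2.64 for Pgk1 (SE 0.087) and -2.61 for Pkm (SE 0.096), and the differences among them are smaller than their errors (adjusted p = 1.87e-50, 6.74e-52 and 3.43e-47, edgeR). Pkm yields the M1 and M2 forms of pyruvate kinase by alternative splicing downstream of a common start, which tags of 5′ ends do not resolve. A second annotated gene that also bears the name Aldoa (ENSMUSG00000114515.2, chr7:126800790-126809108, minus strand), upstream of the member and not part of the set, was lower in level and higher in mOPCs, with 6.15, 6.66 and 6.51 against 14.5, 13.9 and 12.6 TPM and a log2 fold change of 0.97 (SE 0.13, edgeR).

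At the last step, Ldha (ENSMUSG00000063229.15, chr7:46841475-46855627, plus strand) had 454.0, 479.7 and 397.0 TPM in mESCs and 18.6, 17.3 and 15.8 in mOPCs. It fell by 4.81 on the log2 scale (SE 0.10, adjusted p = 5.46e-70, edgeR), a 28.0-fold difference that was exceeded only by Hk2 among the 10 genes. Ldhb (ENSMUSG00000030246.11, chr6:142490249-142507957, minus strand) had 77.6, 58.2 and 60.6 against 35.6, 38.2 and 43.3 TPM. Its mESC libraries all lay above its mOPC libraries, and its log2 fold change was -0.86 (SE 0.098, adjusted p = 9.1e-12, edgeR). The summed level of the lactate dehydrogenase genes Ldha, Ldhb and Ldhc was 510.5 ± 45.2 TPM in mESCs and 56.3 ± 2.58 in mOPCs (SD, n = 3).

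Isozyme choice was compared as a share within each library, which does not depend on how libraries are scaled. Hk2 accounted for 70.3%, 74.7% and 72.8% of the tags of Hk1 and Hk2 in mESCs and for 2.86%, 2.98% and 2.79% in mOPCs. The mean shares were 72.6 ± 2.18% and 2.88 ± 0.0996% (SD, n = 3), a difference of -69.7 percentage points. Pfkl accounted for 30.2%, 28.3% and 26.1% of the tags of Pfkl and Pfkp in mESCs and for 68.3%, 62.7% and 68.1% in mOPCs. The difference was 38.1 percentage points, from 28.2 ± 2.04% to 66.3 ± 3.19% (SD, n = 3). Ldhb accounted for 14.6%, 10.8% and 13.2% of the tags of Ldha and Ldhb in mESCs and for 65.7%, 68.9% and 73.2% in mOPCs. This difference was 56.4 percentage points, from 12.9 ± 1.92% to 69.2 ± 3.81% (SD, n = 3). The major isozyme gene of the pair thus differed between the cell types at all 3 steps. In none of them did the libraries of the cell types overlap. The two-sided exact permutation test gave p = 0.1 for each of the 3 shares, also after adjustment over the 3 comparisons, and 0.1 is the smallest value that 3 against 3 libraries allow.

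Which gene of a pair changed was not the same at the 3 steps. Between Hk1 and Hk2, the share moved through a fall of Hk2 together with a rise of Hk1. Between Pfkl and Pfkp and between Ldha and Ldhb, both genes fell, and the share of Pfkl and of Ldhb was higher in mOPCs because the partner gene had fallen more. The level of Ldhb itself was lower in mOPCs than in mESCs, although it was the major lactate dehydrogenase gene there.

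The other genes of these steps changed the picture most for phosphofructokinase. Pfkm, the muscle type, had 7.36, 7.08 and 9.33 TPM in mESCs and 25.8, 30.5 and 28.2 in mOPCs, a log2 fold change of 1.73 (SE 0.12, adjusted p = 3.46e-27, edgeR). With Pfkm counted, the shares of Pfkl, Pfkp and Pfkm were 27.8 ± 2.07%, 70.7 ± 1.87% and 1.52 ± 0.22% in mESCs, and 55.4 ± 3.93%, 28.0 ± 1.96% and 16.6 ± 1.98% in mOPCs (SD, n = 3). Beside Hk1 and Hk2, Hkdc1 made up 1.07 ± 0.35% of the tags of the 4 hexokinase genes in mESCs and 0.106 ± 0.0381% in mOPCs. Hk3 had no tag in any mESC library and at most 0.0694 TPM in mOPCs. Ldhc, the testis type, had 0.923 to 1.74 TPM in mESCs and no tag in mOPCs, which puts it at least 44.8-fold lower there against a floor of 3 tags over the pooled 91692553 mOPC tags.

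Aldolase showed a smaller change of the same kind. Aldoc, the brain type, had 19.9, 20.4 and 17.7 TPM in mESCs and 44.8, 41.5 and 47.4 in mOPCs, a log2 fold change of 1.09 (SE 0.097, adjusted p = 2.07e-19, edgeR). The share of Aldoa in the tags of Aldoa and Aldoc was 96.7 ± 0.48% in mESCs and 68.8 ± 1.69% in mOPCs (SD, n = 3). Pyruvate kinase and phosphoglycerate kinase each came from 1 gene in both cell types. The liver and red cell gene Pklr had 1.03 to 1.5 TPM in mESCs and no tag in mOPCs (at least 35.2-fold lower, floor of 3 tags over the pooled mOPC libraries), and the testis gene Pgk2 had at most 0.0347 TPM in any library.

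**Figure D2:**
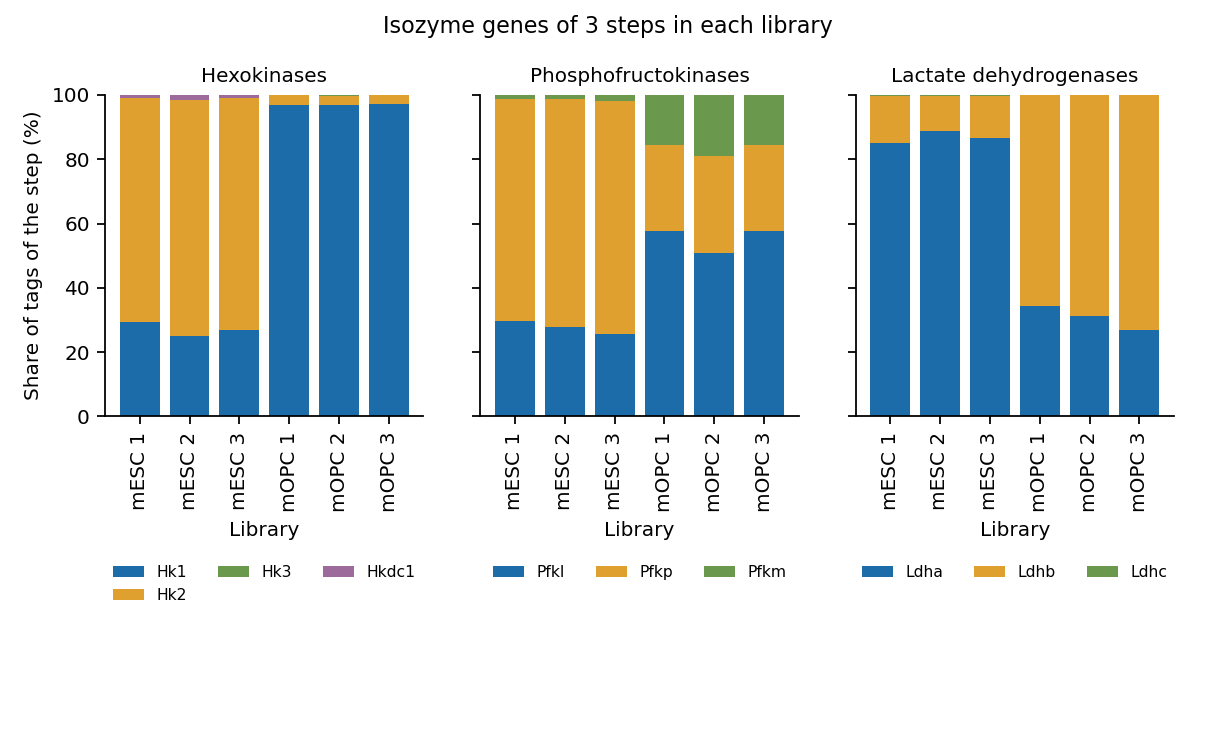
Share of each gene in the tags of the isozyme genes shown for a step (%, from 0 to 100) in each of the 6 libraries, for hexokinases, phosphofructokinases and lactate dehydrogenases. Colours are genes, named under each panel. Hk2, Pfkp and Ldha fill most of the mESC columns, and Hk1, Pfkl and Ldhb most of the mOPC columns, where Pfkm takes a further 16.6% of phosphofructokinase tags on average.

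Almost all tags of 9 of the genes came from a single start region. The region with most tags, made by joining overlapping 500 bp windows, held at least 94.5% of the tags of each of the 9 in every library, the lowest share being that of Gpi1. In Aldoa the windows of the 12 transcripts joined into 1 region (chr7:126797251-126801251), so that its share of 100% follows from the joining. Within the main region it, the leading position, that is, the position with the highest mean share over the cell types, was at most 16 bp away from the nearest annotated 5′ end in 9 genes. The exception was Hk1, whose leading position (chr10, 62340144) lay 398 bp downstream of the nearest annotated 5′ end, inside an annotated first exon. The 27 bases that follow the leading position were looked up in all annotated transcripts. None of the 10 genes shared them with a transcript of another gene. The same held for Gapdh and Eno1, whose counts are called uncertain below because of copies. Since only uniquely aligned tags were kept, the lookup could hardly find a shared sequence. It does not show whether tags of these genes were lost to copies.

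The promoter sequences of the genes whose starts are described next are shown for reading the positions on the DNA. They were taken from RefSeq windows of 250 bases before to 50 bases after a gene's start (GRCm38.p6, that is, mm10), which hold the leading position of 6 of the 10 genes. For Hk1, Gpi1, Pfkl and Pgk1 it lay outside the windows. The 3 sequences below run from 70 bases before the leading position to at most 10 bases after it, 5′ to 3′ on the gene's strand, and the capitals mark the base at the leading position and the base after it. They are shown because Pfkp and Pkm kept a dominant start in both cell types whose share fell in mOPCs, and Ldhb moved its leading start least among the genes that moved it.
Pfkp, chr13:6648722-6648796, minus strand: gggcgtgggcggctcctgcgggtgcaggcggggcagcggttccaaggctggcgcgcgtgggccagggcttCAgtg
Pkm, chr9:59656505-59656585, plus strand: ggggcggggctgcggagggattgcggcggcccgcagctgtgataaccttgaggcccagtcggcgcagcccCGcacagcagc
Ldhb, chr6:142507936-142508016, minus strand: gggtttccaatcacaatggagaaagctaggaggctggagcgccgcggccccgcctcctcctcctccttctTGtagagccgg
In all 3, the marked pair is a pyrimidine followed by a purine, the usual pair at a transcription start, whose purine is the first base of the RNA. Over 5146 genes with at least 100 tags in every library and a window that holds their leading position, the deposited position and the base after it formed such a pair in 88.6%, and the base before it and the deposited position in 1.07%. The shares were alike on the plus strand (88.2% and 1.27%) and on the minus strand (89.0% and 0.865%). The deposited positions thus lie 1 base upstream of the pair's purine, on both strands and in most genes, with the libraries of both cell types pooled.

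The promoters of Ldha, Hk2 and Aldoa are shown at greater length, since Ldha and Hk2 are the genes that fell most and these 3 hold the core ACGTG, the letters shared by the binding motifs of hypoxia-inducible factors and of E-box factors such as MYC. Each sequence starts at the RefSeq window's first base and ends with the leading position and the base after it, and the capitals mark the core on either strand (ACGTG or CACGT), lengthened to CACGTG where both overlap.
Ldha, chr7:46845554-46845843, plus strand: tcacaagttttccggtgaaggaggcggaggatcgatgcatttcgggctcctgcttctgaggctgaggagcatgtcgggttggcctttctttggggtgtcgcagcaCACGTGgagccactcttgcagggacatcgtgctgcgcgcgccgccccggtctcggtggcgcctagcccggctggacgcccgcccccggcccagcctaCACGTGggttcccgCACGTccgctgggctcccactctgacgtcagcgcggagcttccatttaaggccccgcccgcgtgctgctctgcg
Hk2, chr6:82774437-82774704, minus strand: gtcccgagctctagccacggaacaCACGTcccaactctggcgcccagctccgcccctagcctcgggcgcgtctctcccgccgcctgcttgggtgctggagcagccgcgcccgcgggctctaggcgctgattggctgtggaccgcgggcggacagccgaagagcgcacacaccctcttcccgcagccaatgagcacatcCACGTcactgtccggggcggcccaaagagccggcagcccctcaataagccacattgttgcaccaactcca
Aldoa, chr7:126799178-126799428, minus strand: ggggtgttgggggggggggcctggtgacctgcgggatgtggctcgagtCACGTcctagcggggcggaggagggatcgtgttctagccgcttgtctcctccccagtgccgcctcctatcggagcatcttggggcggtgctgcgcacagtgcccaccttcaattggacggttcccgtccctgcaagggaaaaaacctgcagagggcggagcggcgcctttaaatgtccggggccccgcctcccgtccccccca
The core ACGTG was present in 3 of the 6 windows searched, against 19.6% of the 32851 RefSeq windows of the same 300 bases, and CACGTG, which contains it, in 1 of 6 (Ldha) against 7.15%. The windows of Pfkp, which fell more than Aldoa, and of Pkm and Ldhb did not hold the core on either strand. On both strands, GGGCGG was found in 5 of 6 windows against 35.7%, CCAAT in 5 of 6 against 37.4%, and TATAAA in none against 13.6%. These matches describe the letters only, and with 6 windows they set the genes apart from no others.

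The position of starts within the main promoter was then compared between the cell types in the 9 genes with at least 100 tags there in every library, which leaves out Hk2 (67 to 132 tags in mOPCs). The mean start position, taken within 100 bp of the leading position, separated the libraries of the cell types in 7 of the 9 genes, and lay further upstream in mOPCs in 6 of them. Over 9115 genes with as many tags, the libraries were apart in 80.0%, and apart with the mOPC mean upstream in 37.6%. The 6 genes were Hk1, Gpi1, Pfkp, Ldhb, Pgk1 and Pkm, with shifts from -2.74 bp in Ldhb to -7.96 bp in Pfkp, where minus stands for upstream. Pfkl shifted by 1.12 bp the other way, and Aldoa and Ldha overlapped between the cell types. The exact permutation test gave p = 0.1, its smallest value here, for each of the 7 genes.

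Pgk1 showed the clearest change of leading position. Its position chrX, 106187149 held 4.63%, 4.34% and 5.11% of the region's tags in mESCs and 15.4%, 17.7% and 12.2% in mOPCs. The position 15 bp downstream held 14.6%, 13.4% and 12.3% in mESCs and 6.76%, 6.57% and 7.37% in mOPCs. The most used start of Pgk1 was therefore the downstream position in mESCs and the upstream one in mOPCs, without overlap between libraries at either position. In Hk1, the gene that rose, the leading mESC position held 27.7%, 23.8% and 22.9% of tags in mESCs but 10.2%, 8.93% and 9.73% in mOPCs, where starts spread over a wider stretch. In mOPCs the position 28 bp upstream had the highest mean, 10.2 ± 1.01% against 9.61 ± 0.63% at the leading mESC position (SD, n = 3), with overlapping libraries. The stretch from the 10th to the 90th percentile of tags measured 43.0 ± 6.08 bp in mESCs and 56.3 ± 2.08 bp in mOPCs in Hk1 (SD, n = 3).

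Aldoa and Ldhb changed their leading position by 7 and 2 bp. In Aldoa, position chr7, 126799179 held 18.7 ± 1.84% of the region's tags in mESCs and 8.82 ± 1.70% of those in mOPCs, and the position 7 bp upstream 11.3 ± 1.52% and 15.9 ± 3.16% (SD, n = 3). In Ldhb, position chr6, 142507946 rose from 16.1 ± 1.66% to 27.5 ± 1.41% (SD, n = 3). The position 2 bp downstream held 18.8 ± 2.58% and 18.9 ± 1.15% and did not separate the libraries (SD, n = 3). In mESC library 2 the upstream position already led, with 17.5% against 15.9%, so the change in Ldhb is one of means. The leading position thus differed in 4 of 9 genes (Hk1, Aldoa, Pgk1 and Ldhb), against 36.3% of the 9115 genes.

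Pfkp, Pkm, Gpi1, Pfkl and Ldha kept their leading position. In Pfkp its share was 59.0 ± 0.47% in mESCs and 46.4 ± 1.48% in mOPCs, and in Pkm 52.7 ± 0.70% and 39.0 ± 0.0801% (SD, n = 3). In both genes the mean start lay further upstream in mOPCs. The share of the leading position separated the libraries in 6 of the 9 genes, against 68.6% of the 9115 genes, and was lower in mOPCs in 5 of them, against 36.2%. Ldha had the narrowest promoter, with 3 bp from the 10th to the 90th percentile in each of the 6 libraries and 49.2 ± 1.33% and 47.0 ± 4.37% of tags at the leading position. Beside its 28.0-fold lower level, the mean start position of Ldha differed by 0.413 bp (exact permutation p = 0.4), with overlapping libraries. With all libraries thinned to the same depth, it differed by 0.684 bp and the libraries no longer overlapped (exact permutation p = 0.1). In Hk2, with its few tags in mOPCs, the most used position was chr6, 82774457 in mESCs (32.4%, 28.6% and 30.9%, against 20.9%, 17.0% and 20.5% in mOPCs). In mOPCs it was chr6, 82774438, which held 26.9 ± 0.65% in mESCs and 31.1 ± 7.04% in mOPCs, with overlapping libraries (SD, n = 3). Over the 9 genes the median width was 38.0 bp and the median share of the leading position 23.9%, against 55.0 bp and 18.0% over the 9115 genes. The width of a gene was the mean of its libraries for the 9 genes but their median for the 9115, so these widths compare only roughly. The width separated the libraries in 7 of 9 genes, with wider starts in mOPCs in 5, against 63.9% and 33.8% of all genes.

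**Figure D3:**
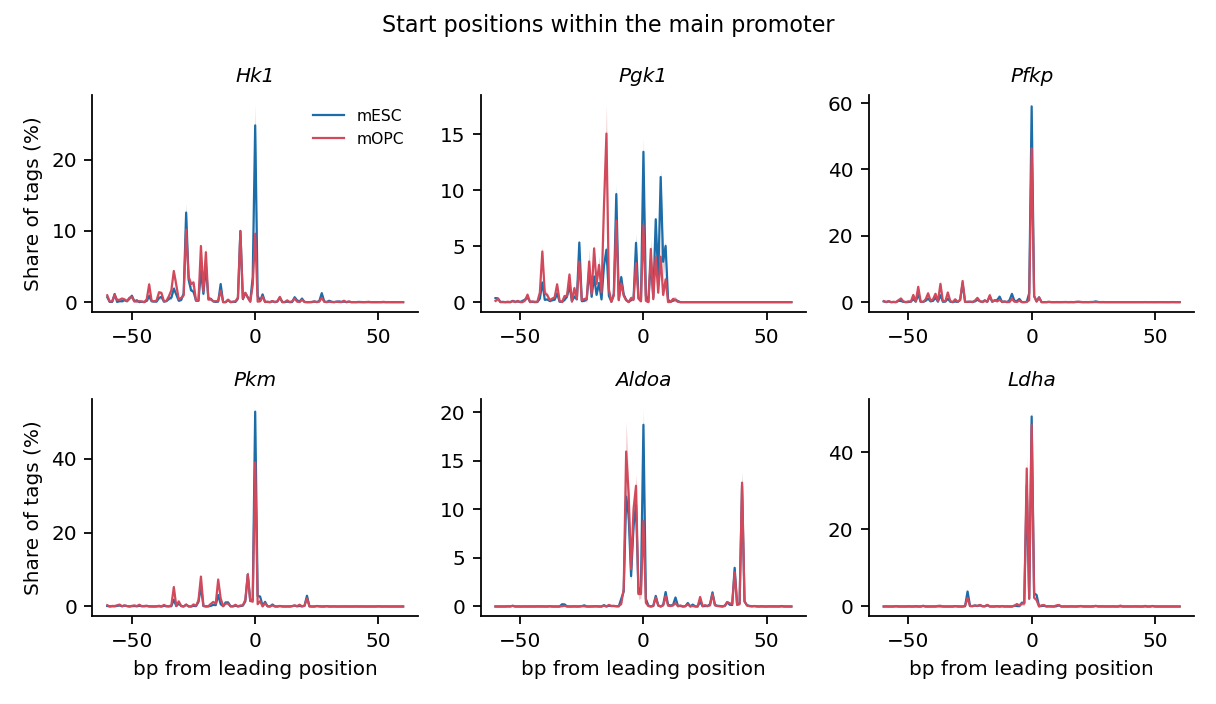
Share of the tags of the main start region (%) at each position from 60 bp upstream to 60 bp downstream of the leading position, for 6 of the genes. Lines are means of 3 mESC (blue) and 3 mOPC (red) libraries and shading runs from the lowest to the highest library. Pgk1 exchanges its leading position between the cell types, Pfkp and Pkm keep a single peak that is lower in mOPCs, and the lines of Ldha nearly coincide.

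Other annotated start regions contributed little. Of the 10 genes, 6 had at least 2 start regions with enough tags to be tested for a change in their relative use (edgeR's diffSpliceDGE), and 4 were called at an adjusted p under 0.05, against 68.6% of 3348 genes. In Pfkp (adjusted p = 4.06e-13, edgeR), a region inside the gene (chr13:6636150-6637150), at the 5′ end of a shorter transcript, held 1.47 ± 0.22% of the gene's tags in mESCs and 0.0496 ± 0.0860% of those in mOPCs (SD, n = 3). In Ldha (adjusted p = 0.0175, edgeR), a region upstream of the main promoter (chr7:46840975-46841975), at the 5′ end of a longer transcript, held 0.475 ± 0.0916% and 0.0514 ± 0.0891%. The mOPC shares rest on 0, 0 and 3 tags for the Pfkp region and on 0, 0 and 1 tag for the Ldha region. In Gpi1 (adjusted p = 6.6e-08, edgeR), a region inside the gene (chr7:34212936-34213936) took a larger share in mOPCs, 3.20 ± 0.55% against 1.16 ± 0.33%, and in Pkm (adjusted p = 2.89e-06, edgeR) the same held for an internal region (chr9:59671086-59672086), with 0.232 ± 0.0844% against 0.0568 ± 0.0103%. The differences thus concern a few percent of a gene's tags or less. Pgk1 and Hk2 were not called (adjusted p = 0.295 and 1, edgeR).

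The windows left out few tags of these genes. In the 9 genes with at least 100 sense tags in every library (all but Hk2), between 0.347% and 11.3% of the sense tags in the gene lay outside the windows. This share was higher in mOPCs without overlap in 7 of 9 genes, as in Pkm with 1.03 ± 0.23% in mESCs and 3.48 ± 0.12% in mOPCs (SD, n = 3), against 72.2% of 9945 genes whose libraries were apart in either direction. The medians over all genes were 4.08% in mESCs and 7.14% in mOPCs.

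The neighbouring steps of sugar metabolism were described from 8 lists of 81 further genes, of which 72 were tested. In edgeR's test, 20 of the 72 were higher and 49 lower in mOPCs, and 3 were not called. Over all genes tested, 42.4% were higher and 48.7% lower, which is also the background for the counts per list below. The lists are small, and a count near these shares does not set a list apart. The median log2 fold change of the 72 was -1.07, against -0.16 over all genes. The remaining core steps of glycolysis were all lower. Triose phosphate isomerase, Tpi1, had 264.7, 195.1 and 176.7 TPM in mESCs against 55.9, 52.2 and 56.8 in mOPCs, and phosphoglycerate mutase, Pgam1, had 82.6, 76.8 and 77.3 against 4.93, 4.61 and 5.11. Enolase 1, Eno1, had 185.3, 193.8 and 166.5 against 12.6, 10.6 and 11.4 TPM. Its near-identical copy Eno1b was counted at 1120, 1268 and 996.5 against 115.3, 108.0 and 111.6 TPM, and the division of tags between them is uncertain. The log2 fold changes were -2.07 for Tpi1 (SE 0.11), -4.12 for Pgam1 (SE 0.11) and -4.10 for Eno1 (SE 0.098). Gapdh was counted at only 20.3 to 21.9 TPM in mESCs and 1.69 to 1.73 in mOPCs (log2 fold change -3.72, SE 0.15). Gapdh has many processed copies in the genome and only uniquely aligned tags were kept, so its level is uncertain.

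Lower glycolysis, from glyceraldehyde 3-phosphate to lactate without the 10 genes, had 10 of 13 tested genes lower and 2 higher, with a median log2 fold change of -3.72. Here Eno1b had a log2 fold change of -3.45, the neuronal enolase Eno2 one of -5.26 and the muscle enolase Eno3 one of -2.94. In upper glycolysis, with Tpi1 and other isozyme genes of the first steps, 2 of 4 were lower and 2, Pfkm and Aldoc, higher (median -0.49). Of the enzymes that make or remove fructose 2,6-bisphosphate, the activator of phosphofructokinase, 3 of 5 were lower and 2 higher (median -1.30). Tigar, a phosphatase of this compound, had 64.6 to 70.2 TPM in mESCs and 14.5 to 15.3 in mOPCs, and Pfkfb1 11.1 to 14.5 and 4.89 to 5.70.

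Among the transporters of glucose and lactate, 7 of 10 were lower and 2 higher (median -2.25). Slc16a3, a carrier used mainly for lactate export, had 52.5 to 59.3 TPM in mESCs and no tag in any mOPC library, at least 1696-fold lower against the floor of 3 tags over the pooled mOPC libraries. Slc16a7, a high-affinity carrier of pyruvate and lactate, moved the other way, from 0.871, 1.14 and 1.36 TPM in mESCs to 141.0, 140.9 and 142.1 in mOPCs (log2 fold change 6.93, SE 0.14). Slc2a13, a myo-inositol transporter of the glucose transporter family, had 1.61 to 2.28 and 156.6 to 187.8 TPM.

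Of the genes for pyruvate entry into mitochondria, 11 of 14 were lower and 2 higher (median -0.91). Pdha1, a subunit of pyruvate dehydrogenase, had 264.7, 272.3 and 250.8 TPM in mESCs and 19.7, 17.8 and 19.2 in mOPCs, and Pcx, pyruvate carboxylase, 31.5 to 36.6 and 1.56 to 3.47. Pdk4, a kinase that inactivates pyruvate dehydrogenase, had 20.1 to 25.6 TPM in mESCs and no tag in mOPCs (at least 713-fold lower, same floor). In the pentose phosphate and hexosamine branches, 6 of 10 were lower and 4 higher (median -1.06). The pentose phosphate enzymes Taldo1 and Rpe fell by 2.18 and 1.86 on the log2 scale. Gfpt2, of the hexosamine branch, had 93.9 to 95.7 TPM in mESCs and 1 tag in all mOPC libraries, a ratio of 8727 with a 95% exact binomial interval of 1566 to 344733 that covers counting error only. Of 3 gluconeogenesis genes tested, 1 was lower and 2 higher (median 0.65), and Pck2, the mitochondrial phosphoenolpyruvate carboxykinase, had 9.98, 14.7 and 12.5 TPM in mESCs and 32.2, 40.5 and 35.0 in mOPCs.

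Of the regulators listed, 9 of 13 were lower and 4 higher (median -0.83). Myc, a transcription factor known to act on glycolysis genes, was among the higher ones, with 25.3, 21.6 and 23.6 TPM in mESCs and 389.1, 341.0 and 362.7 in mOPCs (log2 fold change 3.83, SE 0.096). Its relative Mycn, named after its values were seen, went the other way, with a mean of 201.4 TPM in mESCs and 29.1 in mOPCs (log2 fold change -2.90). Epas1, a subunit of hypoxia-inducible factor, had 16.5 to 16.9 TPM in mESCs and Mlxipl, a glucose-responsive factor, 10.6 to 12.2, and neither had a tag in mOPCs (at least 511-fold and 339-fold lower, same floor). Counting the genes without a tag in mOPCs at these bounds changed none of the medians of the lists.

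**Figure D4:**
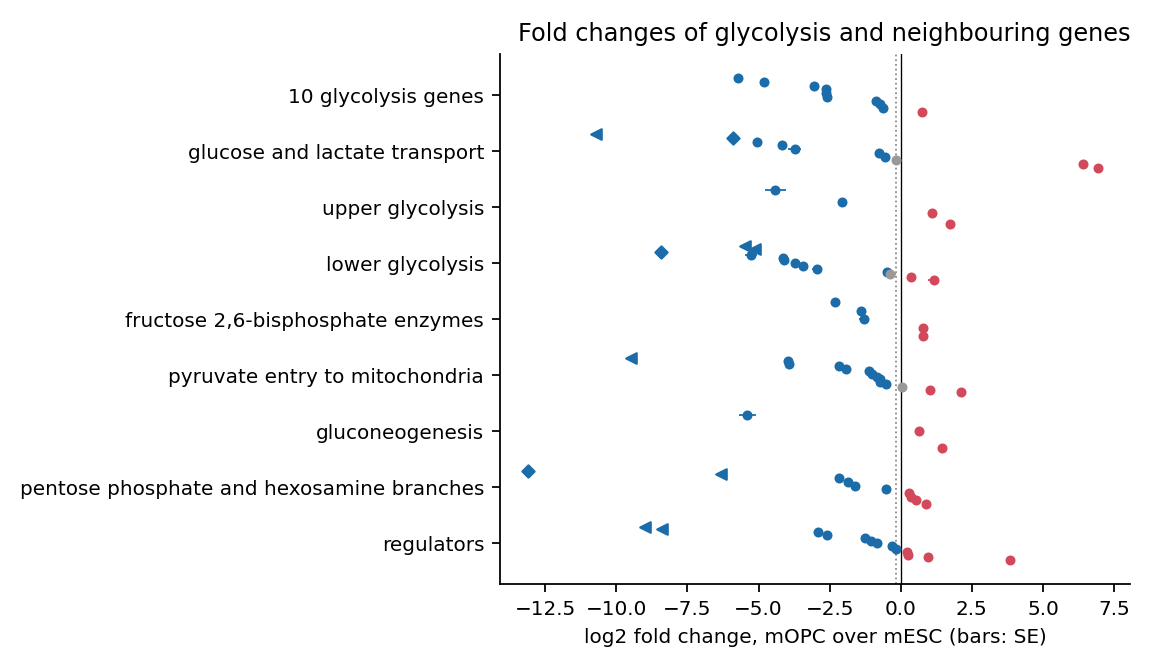
Log2 fold change of mOPCs over mESCs for each tested gene of the 10 glycolysis genes and the 8 further lists, with SE bars. Blue is lower and red higher at an adjusted p under 0.05, and grey was not called. Triangles are lower bounds for genes without a tag in mOPCs, diamonds are ratios of genes with 1 tag there, and the dotted line is the median of all genes tested (-0.16). Of the 10 genes, 9 lie to the left of 0 and Hk1 to the right.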

How the data were processed

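Nuclear CAGE was measured in 3 libraries of R08 mESCs and 3 of Oli-neu mOPCs. The deposited values are raw, unnormalized counts of tags, given per strand and position of mm10. Per the study's methods, tags were made with EcoP15I, and the authors kept unique alignments made with bowtie. The submitters' processing notes name CASAVA 1.8 and BWA 0.5.9 instead. Totals of 16657021 to 40928704 tags set the precision of low values. Tags carry no molecular identifiers, so intervals and floors cover counting error only.

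Counts were summed within 500 bp of the 5′ ends of GENCODE vM21 genes and tested over all genes with edgeR 4.0.16 in R 4.3.3 (quasi-likelihood, robust, TMM, filterByExpr, cell type as the only term, Benjamini-Hochberg adjustment). DESeq2 1.42.0 was an alternative. Shares and start positions were compared by two-sided exact permutation tests in scipy 1.17.1, and start regions by diffSpliceDGE. The SE of a log2 fold change was its size divided by the root of the quasi-likelihood F. The fits were tested on simulated data in which a small part of the genes changed, as many up as down. In the measured data most genes differed, so that test does not show how the scaling behaves there. The glycolysis genes, the lists, the markers and the tests were chosen with earlier results of these data known. The text names all 10 genes, other isozyme genes and core steps (some genes of the lists are not reported here), and, of each other list, at most 3 genes with the largest change among those with an adjusted p under 0.05, a fold of at least 2, libraries apart and at least 10 TPM in the higher cell type. Alternatives were other scaling, filter, tool, window, transcripts and denominators, a replicate block, thinned libraries and each library left out.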

Additional observations from a re-analysis of the deposited data

How the results depend on the processing

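All 10 genes kept their direction and their call in each of the 160 combinations of gene and alternative, and the 39 alternative values of the 3 isozyme shares kept their direction. The number of all genes called ranged from 14054 with windows of 100 bp to 18178 without the filter on low counts (DESeq2 called 16809), and that of genes called lower in the neighbouring lists from 46 to 51. The genes called for start region usage numbered 2177 to 2609, and with thinned libraries 8 in place of 7 of the 9 genes had separate mean start positions, the added gene being Ldha (0.684 in place of 0.413 bp). Windows of 100 bp miss the main start of Hk1, 398 bp from its annotated 5′ end, and narrowed the difference in the Hk2 share from -69.7 to -40.3 percentage points. The deviations of same-numbered libraries from their group means were nearly unrelated (correlations -0.0038, 0.058 and 0.0064). Differently numbered libraries reached 0.069 and -0.068. With 3 libraries per cell type, this cannot settle whether the replicate numbers pair the libraries. With the number as a replicate block, 15183 genes and all 10 glycolysis genes were called, and 2261 genes for start region usage. Exact tests with 3 libraries against 3 cannot pass 0.05, which limits the shares and start positions to descriptions of separation. Hk2 in mOPCs was too shallow for a comparison of its start positions.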
